A study of Mus musculus with 15 samples.

Results

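The ATP-binding cassette (ABC) transporter genes of mouse cerebral vessels are described here across 3 groups of libraries. The members were taken by name, as every gene of the expression table whose symbol begins with Abca to Abcg followed by a digit, with 3 exceptions that are not reported here. There were 45 such genes among 22526 symbols. Of these, 32 had a mean of at least 1 FPKM over the 15 libraries and were tested, and 13 lay below that level. FPKM counts fragments per kilobase of a transcript and is set relative to all fragments mapped in that library.

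ABC proteins use ATP to move substrates across membranes, and most members are exporters. In the endothelium of the blood-brain barrier, P-glycoprotein (Abcb1a and Abcb1b in the mouse), the breast cancer resistance protein (Abcg2) and several multidrug resistance proteins (Abcc genes) face the blood and return drugs and conjugates to it. Members of the Abca and Abcg subfamilies hand cholesterol and phospholipids to apolipoproteins, others work in mitochondria, peroxisomes and lysosomes, and the Abce and Abcf proteins have no membrane domain and act on ribosomes or in other soluble roles.

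All libraries came from vessels isolated from the brains of wild-type C57BL/6 mice at 8 months of age. Every mouse had received an adeno-associated virus (AAV) by stereotactic injection. LH3-AL mice (5 libraries) received AAV-LH3 and then angiotensin II plus L-NAME, GFP-AL mice (5 libraries) received AAV-GFP and the same agents, and GFP-Veh mice (5 libraries) received AAV-GFP and saline. LH3 is lysyl hydroxylase 3, a collagen-modifying enzyme encoded by Plod3. Angiotensin II is a vasoconstrictor hormone and L-NAME blocks nitric oxide synthases, a pair used to raise blood pressure in mice. The sources used here give neither the injected site nor the serotype and promoter of the virus, nor whether each library came from its own mouse, so p-values measure the spread between these libraries, which may be technical. GFP-Veh and GFP-AL each enter 2 of the 3 comparisons, so the differences below share libraries and are given side by side.

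Plod3, which encodes LH3, was listed at 19.5 to 23.2 FPKM in LH3-AL, 12.2 to 14.9 FPKM in GFP-AL and 15.96 to 17.6 FPKM in GFP-Veh, so the LH3-AL libraries lay above all others. Depth, estimated approximately from the size of a single fragment in the table, was 18.1 to 31.6 M fragments in LH3-AL, 21.2 to 27.8 M fragments in GFP-AL and 13.6 to 29.9 M fragments in GFP-Veh. GFP-AL replicates 2 and 3 and GFP-Veh replicate 2 stood apart from the rest of their groups, and results that change without these 3 libraries are given both ways. Endothelial markers (Cldn5, Pecam1 and 13 others) were present in every library, with sums of 2483 to 4116 FPKM in LH3-AL, 3831 to 6046 FPKM in GFP-AL and 2721 to 3893 FPKM in GFP-Veh. Between GFP-AL and GFP-Veh, 8 of the 15 endothelial markers were higher and 3 lower. Of the 15 markers of microglia and macrophages, 10 were higher. Lower were 4 of 11 pericyte, 9 of 12 choroid plexus and 8 of 12 oligodendrocyte markers, while 1 oligodendrocyte marker, Mal, was higher. Between LH3-AL and GFP-AL, 6 endothelial markers were lower and 1 higher, and 11 markers of microglia and macrophages were lower. Higher were 4 pericyte, 9 choroid plexus and 6 oligodendrocyte markers, while 1 oligodendrocyte marker, Mal, was lower. In GFP-AL against GFP-Veh, red cell markers had 7 higher and 0 lower of 7, smooth muscle 0 higher and 1 lower of 10, fibroblast 0 higher and 2 lower of 10, astrocyte 1 higher and 3 lower of 12 and neuron 0 higher and 0 lower of 12. In LH3-AL against GFP-AL, red cell markers had 0 higher and 0 lower of 7, smooth muscle 0 higher and 0 lower of 10, fibroblast 2 higher and 0 lower of 10, astrocyte 1 higher and 1 lower of 12 and neuron 1 higher and 0 lower of 12. In LH3-AL against GFP-Veh, 3 of 7 red cell markers were higher and 0 lower, and no marker of the other lists passed. Of all genes tested, 0.145% were higher and 0.375% lower there. The shares of all genes were 10.8% higher and 17.7% lower between GFP-AL and GFP-Veh. They were 17.0% higher and 11.4% lower between LH3-AL and GFP-AL. Marker counts near these shares do not set a list apart from other genes. Red cell sums were 4774 to 10140 FPKM in LH3-AL, 3874 to 19350 FPKM in GFP-AL and 1471 to 3864 FPKM in GFP-Veh. Their part in the differences of the members was not tested. No marker on these lists was at or near 0 in all libraries. In bulk libraries, fewer cells of a type and less RNA per cell cannot be told apart.

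Levels are compared between genes on the FPKM scale, which corrects for transcript length. Abcb1a, the main P-glycoprotein gene of mouse brain capillaries, had the highest mean level (153 FPKM over 15 libraries), above 99.3% of all symbols. Abcc4, an exporter of cyclic nucleotides and organic anions, followed at 62.8 FPKM, then Abca2, a lipid transporter of late endosomes and lysosomes known from oligodendrocytes, at 55.1 FPKM, and Abcg2 at 32.6 FPKM. The ranges of Abcc4 and Abca2 over 15 libraries overlapped widely (32.8 to 100.04 FPKM for Abcc4 and 36.1 to 77.8 FPKM for Abca2), so their order is not set by these libraries. The other 28 tested members had mean levels of 1.13 (Abcb1b) to 26.4 FPKM (Abcf2). Of the 13 members below the filter, Abcc3, Abca6, Abcb4 and Abcc12 had mean levels of 0.260 to 0.940 FPKM. The remaining members, Abca17, Abca13, Abcc2, Abcg5, Abca14, Abcg8, Abcb11, Abca15 and Abca12, were at 0.00233 to 0.0583 FPKM, among them the sterol exporter pair Abcg5 and Abcg8 and the bile salt export pump Abcb11, which are known from liver and gut.

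**Figure D1:**
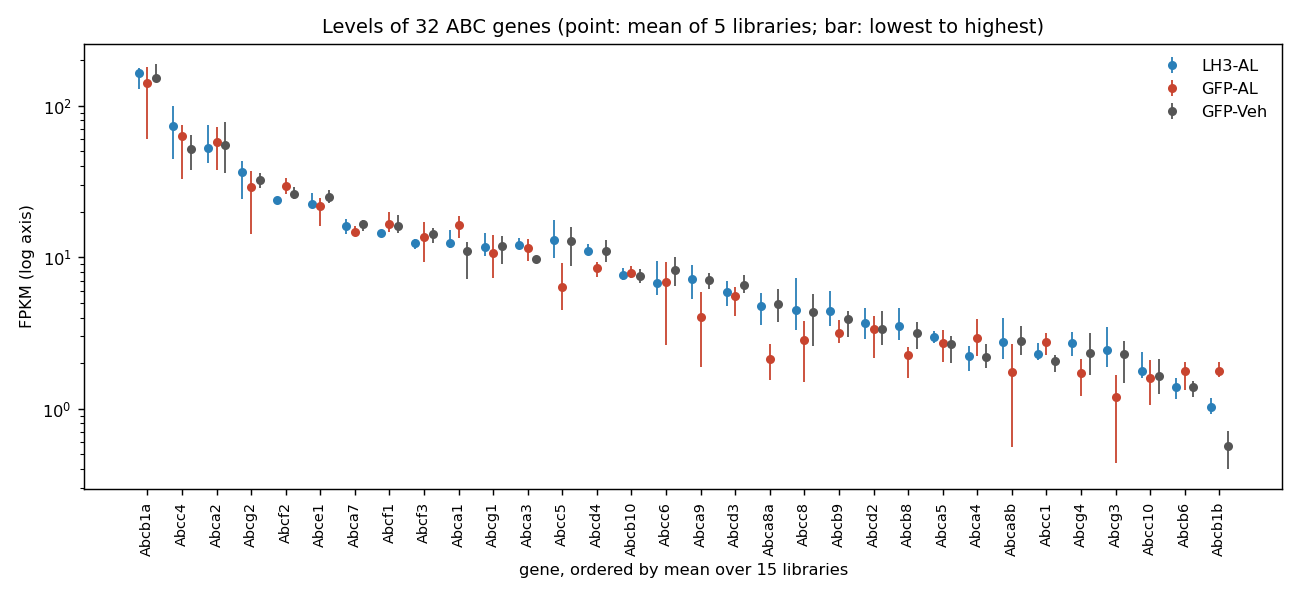
Mean FPKM (log axis) of the 32 tested ABC genes in LH3-AL, GFP-AL and GFP-Veh, with bars from the lowest to the highest of 5 libraries, ordered by the mean over 15 libraries. Abcb1a stands highest at 153 FPKM, and Abcb1b, its tandem copy, is the lowest tested member at 1.13 FPKM with 3 groups that do not overlap.

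Between GFP-AL and GFP-Veh, 3 of the 32 tested members were higher (Abcb1b, Abca1 and Abcc1) and 6 lower (Abca8a, Abcc5, Abca9, Abcg3, Abcd4 and Abcb8) at an adjusted p below 0.05 with limma. A positive log2 difference here and below means a higher value in the group named first, and a member is called where its adjusted p over all genes tested is below 0.05. The 9 members are 28.1% of those tested, against 28.6% of the 13082 genes tested, with 10.8% of all genes higher and 17.7% lower, so the share called was near that of all genes. The members' median log2 difference was -0.15, beside -0.09 for all genes tested. Groups did not overlap for 4 members (Abcb1b and Abca1 higher, Abca8a and Abca9 lower), which is 12.5% of the members against 16.7% of all genes (6.59% higher and 10.1% lower).

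Between LH3-AL and GFP-AL, 8 members were higher (Abcc5, Abca8a, Abca9, Abcg3, Abcb8, Abcg4, Abcb9 and Abcd4) and 2 lower (Abcb1b and Abcf2). These 10 are 31.2% of the members, against 28.5% of all genes tested (17.0% higher and 11.4% lower). The median log2 difference was 0.11 over the members and 0.08 over all genes. Groups did not overlap for 8 members, 6 higher and 2 lower, which is 25% of the members against 19.4% of all genes (11.0% higher and 8.45% lower).

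The 7 members called in both comparisons (Abcb1b, Abcc5, Abca8a, Abca9, Abcb8, Abcd4 and Abcg3) had opposite signs in them. Abca1 and Abcc1 were called in GFP-AL against GFP-Veh alone, Abcb9, Abcf2 and Abcg4 in LH3-AL against GFP-AL alone, and 20 tested members in neither. Because GFP-AL stands in both comparisons, on opposite sides, a high or low GFP-AL value by itself gives opposite signs. Between LH3-AL and GFP-Veh, 0 of the 32 members passed with limma, against 0.52% of all genes. At an unadjusted p below 0.05, 2 members (Abcb1b and Abca3) stood out there, which is 6.25% against 9.02% of all genes.

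**Figure D2:**
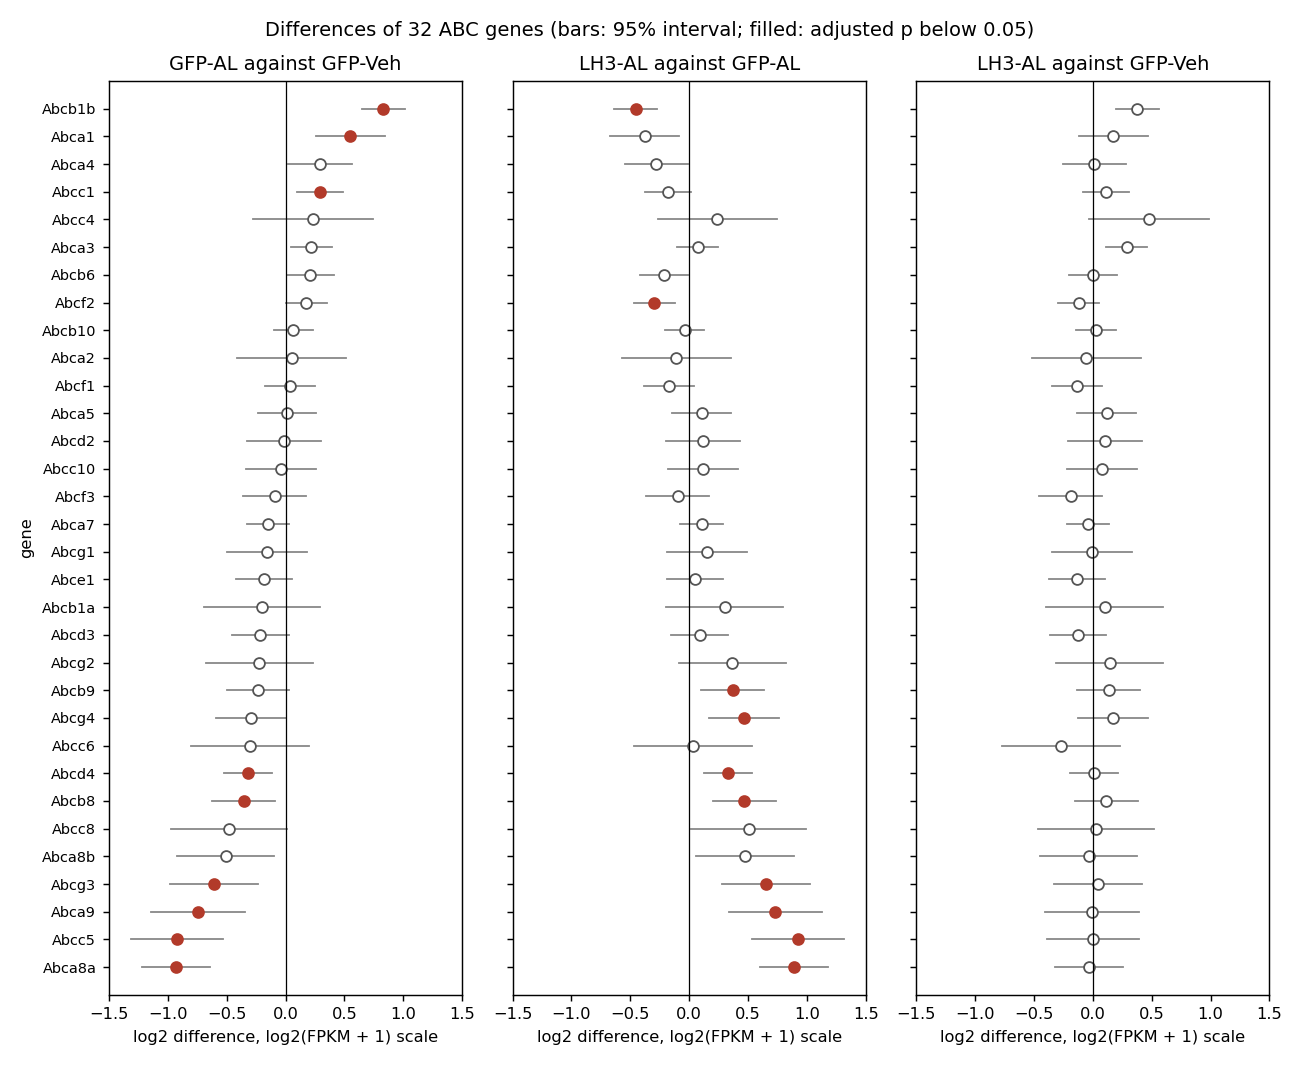
Log2 differences of the 32 tested ABC genes on the log2(FPKM + 1) scale in the 3 comparisons, with 95% intervals. Filled points passed an adjusted p below 0.05: 9 on the left (GFP-AL against GFP-Veh), 10 in the middle (LH3-AL against GFP-AL) and 0 on the right (LH3-AL against GFP-Veh).

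Scaling bears on these counts. Under median-of-ratios scaling, all genes called in GFP-AL against GFP-Veh split into 1842 higher and 1711 lower (1416 and 2321 in the values above), and the members into 7 higher and 4 lower. Between LH3-AL and GFP-AL the split of all genes was then 1782 higher and 1895 lower (2227 and 1496 above), and that of the members 7 higher and 4 lower. The members that this scaling added in GFP-AL against GFP-Veh were Abca3, Abca4, Abcb6 and Abcf2, all higher, and those that it took away were Abcb8 and Abcd4.

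Of the 9 drug and conjugate efflux pumps, 7 were tested. In GFP-AL against GFP-Veh, Abcb1b and Abcc1 rose and Abcc5 fell, and in LH3-AL against GFP-AL, Abcc5 rose and Abcb1b fell. These are 42.9% and 28.6% of the 7, beside 28.6% and 28.5% of all genes tested. The pumps with the highest levels, Abcb1a, Abcc4 and Abcg2, were called in none of the 3 comparisons. Markers of the cells around them moved at the same time: in GFP-AL, microglia and macrophage markers summed to 909.9 to 1510.0 FPKM, against 316 to 699.5 FPKM in GFP-Veh, and their part in the pump results was not tested.

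Abcb1a, which encodes the P-glycoprotein of brain capillaries, was listed at 178, 129, 170.2, 174 and 171 FPKM in LH3-AL, at 131, 60.6, 160.4, 180.1 and 175 FPKM in GFP-AL and at 145, 142, 188, 144 and 146 FPKM in GFP-Veh, each in the order of replicates 1 to 5. A single library, GFP-AL replicate 2, was far below the other 14, which overlapped between groups. Limma's log2 difference was -0.20 (95% interval -0.70 to 0.29, adjusted p = 0.544) for GFP-AL against GFP-Veh and 0.30 (95% interval -0.19 to 0.80, adjusted p = 0.34) for LH3-AL against GFP-AL. Without GFP-AL replicate 2 these differences were 0.08 and 0.02, so the sign of the first turned. Abcg2, which shares many drug substrates with P-glycoprotein, was listed at 34.1, 24.1, 41.7, 43.4 and 39.4 FPKM in LH3-AL, at 30.6, 14.2, 27.7, 37.2 and 34.8 FPKM in GFP-AL and at 35.8, 34.1, 33.3, 29.99 and 28.7 FPKM in GFP-Veh. The same library was again the lowest, and the groups overlapped. For Abcg2 the log2 difference was -0.22 (95% interval -0.68 to 0.23, adjusted p = 0.462) for GFP-AL against GFP-Veh and 0.37 (95% interval -0.09 to 0.82, adjusted p = 0.206) for LH3-AL against GFP-AL, or 0.00 and 0.14 without GFP-AL replicate 2.

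Abcc4 was listed at 63.1, 44.6, 87.1, 100.04 and 74.6 FPKM in LH3-AL, at 64.6, 32.8, 73.2, 68.02 and 74.5 FPKM in GFP-AL and at 64.1, 37.8, 59.6, 48.5 and 48.96 FPKM in GFP-Veh. GFP-AL replicate 2 was once more the lowest of the 15, and the remaining values overlapped between all groups. The differences were 0.24 (95% interval -0.27 to 0.74, adjusted p = 0.484) for GFP-AL against GFP-Veh, 0.24 (95% interval -0.27 to 0.75, adjusted p = 0.466) for LH3-AL against GFP-AL and 0.48 (95% interval -0.03 to 0.98, adjusted p = 0.593) for LH3-AL against GFP-Veh. With library weights, which give less weight to libraries that vary more, Abcc4 passed as higher in LH3-AL against GFP-Veh at 0.63 (adjusted p = 0.0238 with limma). In GFP-AL replicate 2 the pericyte marker sum was also the lowest of the 15 libraries (878 FPKM), while its endothelial marker sum (4740.0 FPKM) lay above every LH3-AL and GFP-Veh library. Cldn5 (1474 FPKM) and Slc2a1 (1273 FPKM) made up much of that endothelial sum, while Pecam1 (158 FPKM) lay within the LH3-AL range. Rgs5 (370 FPKM) made up much of the pericyte sum in that library, while Pdgfrb (50.8 FPKM) lay slightly above GFP-Veh replicate 1 (50.5 FPKM). The pericyte sum was thus low in the same library as the pumps and the endothelial sum was not, and the part of either in the pump levels was not tested.

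**Figure D3:**
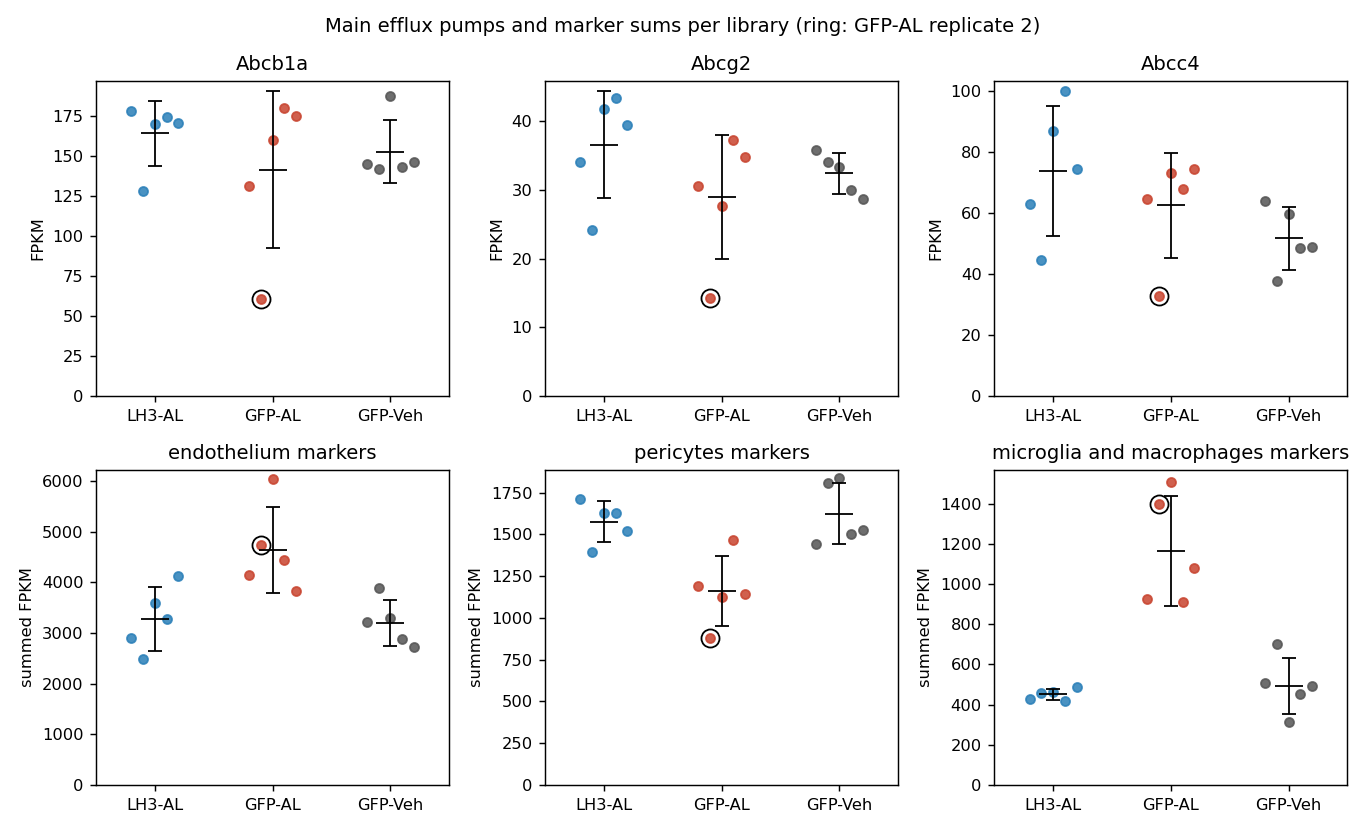
FPKM of Abcb1a, Abcg2 and Abcc4 in each library (top) and summed FPKM of the endothelial, pericyte and microglia and macrophage markers (bottom) in LH3-AL, GFP-AL and GFP-Veh, with mean and SD of 5 libraries and GFP-AL replicate 2 ringed. The ringed library is the lowest for all 3 pumps and for the pericyte sum, and is not low for the endothelial or the microglia and macrophage sum.

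Abcb1b, the second mouse P-glycoprotein gene, lies downstream of Abcb1a on chromosome 5 (GRCm38, chr5:8798147-8866315, plus strand), in a run of 299 kb with Abcb1a and Abcb4. Its RefSeq promoter (GRCm38.p6, 250 bases before to 50 after the gene's start) is shown because Abcb1b had the smallest p of the family in GFP-AL against GFP-Veh, together with those of 4 other members called in both comparisons that have an entry, Abcc5, Abca8a, Abca9 and Abcg3. Abcb8 and Abcd4 were also called in both. Of the 45 members, 35 have an entry. Sequences run 5′ to 3′ on the gene's strand, and capitals mark every match, on either strand, to one of 10 motifs searched.
Abcb1b, chr5:8797897-8798196, plus strand: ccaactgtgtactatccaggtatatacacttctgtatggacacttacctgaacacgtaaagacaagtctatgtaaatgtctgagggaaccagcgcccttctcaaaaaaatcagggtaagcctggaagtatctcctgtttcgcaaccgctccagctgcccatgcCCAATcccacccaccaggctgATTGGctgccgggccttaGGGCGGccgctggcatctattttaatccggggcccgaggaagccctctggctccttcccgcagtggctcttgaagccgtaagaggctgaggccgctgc
Abcc5, chr16:20426345-20426644, minus strand: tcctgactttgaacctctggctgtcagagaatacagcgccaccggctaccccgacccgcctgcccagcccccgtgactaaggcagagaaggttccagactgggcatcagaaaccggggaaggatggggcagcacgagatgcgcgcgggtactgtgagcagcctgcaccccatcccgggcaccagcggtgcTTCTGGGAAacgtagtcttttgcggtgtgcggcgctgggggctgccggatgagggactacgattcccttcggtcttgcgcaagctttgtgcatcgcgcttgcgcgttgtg
Abca8a, chr11:110095888-110096187, minus strand: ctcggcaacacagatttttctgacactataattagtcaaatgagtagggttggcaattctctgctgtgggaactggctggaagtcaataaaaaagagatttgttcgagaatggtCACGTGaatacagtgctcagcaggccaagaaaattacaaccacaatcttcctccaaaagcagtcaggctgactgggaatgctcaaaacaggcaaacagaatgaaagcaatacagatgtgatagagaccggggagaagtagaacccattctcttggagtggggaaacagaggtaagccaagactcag
Abca9, chr11:110168104-110168403, minus strand: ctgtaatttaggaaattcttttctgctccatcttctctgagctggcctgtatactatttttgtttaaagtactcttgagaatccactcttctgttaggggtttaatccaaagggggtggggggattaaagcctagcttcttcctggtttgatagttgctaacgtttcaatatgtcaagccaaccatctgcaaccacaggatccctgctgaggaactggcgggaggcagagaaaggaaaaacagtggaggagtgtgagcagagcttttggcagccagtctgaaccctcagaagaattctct
Abcg3, chr5:104982668-104982967, minus strand: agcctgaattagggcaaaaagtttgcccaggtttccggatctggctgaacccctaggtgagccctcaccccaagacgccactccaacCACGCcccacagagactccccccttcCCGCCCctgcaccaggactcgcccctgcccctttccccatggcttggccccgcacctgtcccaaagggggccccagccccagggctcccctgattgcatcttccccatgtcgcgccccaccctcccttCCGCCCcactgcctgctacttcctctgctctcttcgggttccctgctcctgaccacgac
The Abcb1b window held a CCAAT box on each strand and a GC box (GGGCGG, here on the plus strand), at -87, -66 and -48 from the start site. The Abcc5 window held TTCNNNGAA, the palindrome that STAT factors bind, the Abca8a window held the palindromic E-box CACGTG, the Abcg3 window held GC boxes on the minus strand and GCGTG, the core bound by the aryl hydrocarbon receptor, and the Abca9 window held none of the 10. Of 32851 RefSeq promoter windows of the same length, 37.4% hold CCAAT, 35.7% GGGCGG, 32.4% GCGTG, 8.30% TTCNNNGAA and 7.15% CACGTG on either strand. The other 5 motifs searched were the TATA box (TATAAA, in 13.6% of windows), the AP-1 site (TGACTCA, in 5.20%), the antioxidant response core (TGACNNNGC, in 12.4%), the direct repeat bound by liver X receptors (in 0.0152%) and the NF-kappaB site (in 0.155%). No window of a member with an entry held the AP-1 site, the direct repeat or the NF-kappaB site. A match is a description of letters in this window and names no bound factor.

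Abcb1b was listed at 1.01, 1.005, 0.931, 1.05 and 1.17 FPKM in LH3-AL, at 1.65, 1.95, 2.04, 1.69 and 1.63 FPKM in GFP-AL and at 0.713, 0.402, 0.642, 0.588 and 0.501 FPKM in GFP-Veh. The 3 groups did not overlap in any pair, with GFP-AL highest, LH3-AL between and GFP-Veh lowest. Its mean level was 1.03 ± 0.0884 FPKM in LH3-AL, 1.79 ± 0.189 FPKM in GFP-AL and 0.569 ± 0.121 FPKM in GFP-Veh (SD, n = 5 each). The log2(FPKM + 1) difference was 0.83 (SE 0.09, adjusted p = 1.82e-05) for GFP-AL against GFP-Veh, -0.45 (SE 0.09, adjusted p = 0.00165) for LH3-AL against GFP-AL and 0.38 (SE 0.09, adjusted p = 0.0721) for LH3-AL against GFP-Veh, all with limma. This scale understates changes of genes near 1 FPKM. Abcb1b reached the mean of 1 FPKM through its GFP-AL libraries, and with no filter it was called in the first 2 comparisons as well.

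Abcb1b is a minor part of the P-glycoprotein transcripts: it made up 0.544% to 0.776% of the summed Abcb1a and Abcb1b FPKM in LH3-AL, 0.920% to 3.12% in GFP-AL and 0.282% to 0.488% in GFP-Veh. The highest GFP-AL share was in replicate 2, where Abcb1a was low, and the groups did not overlap. Of the 50-base stretches of the Abcb1b transcripts (GENCODE M21), 11.1% also occur in those of Abcb1a, which had far higher levels in every library, so the Abcb1b level is uncertain where reads could be split between the copies. Abcb1a did not move with Abcb1b over the groups. Abcb4, the phosphatidylcholine exporter of the same run, was below the filter at 0.244 to 0.659 FPKM in LH3-AL, 0.232 to 1.64 FPKM in GFP-AL and 0.170 to 0.295 FPKM in GFP-Veh, with GFP-AL replicate 3 the highest, and its log2 difference with no filter was 0.45 (adjusted p = 0.0431) for GFP-AL against GFP-Veh and -0.27 (adjusted p = 0.212) for LH3-AL against GFP-AL.

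Abcc5, an exporter of cyclic nucleotides and glutamate conjugates, was listed at 11.3, 17.6, 12.4, 13.5 and 9.93 FPKM in LH3-AL, at 9.13, 5.46, 4.52, 5.41 and 7.34 FPKM in GFP-AL and at 13.6, 8.81, 12.02, 14.00 and 15.9 FPKM in GFP-Veh. GFP-AL values were low, with every LH3-AL library above every GFP-AL library and 1 GFP-Veh library, replicate 2, inside the GFP-AL range. The difference was -0.92 (SE 0.18, adjusted p = 0.00196) for GFP-AL against GFP-Veh and 0.93 (SE 0.18, adjusted p = 0.00227) for LH3-AL against GFP-AL, and it was 0.00 (SE 0.18, adjusted p = 0.998) for LH3-AL against GFP-Veh. Both calls held under every alternative.

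Abcc1, an exporter of glutathione conjugates and leukotrienes, was listed at 2.19, 2.73, 2.29, 2.09 and 2.23 FPKM in LH3-AL, at 3.16, 2.25, 3.05, 2.72 and 2.58 FPKM in GFP-AL and at 2.03, 1.74, 2.15, 2.27 and 2.10 FPKM in GFP-Veh. GFP-AL values were mostly the highest, and they overlapped with both other groups. It rose in GFP-AL against GFP-Veh with a difference of 0.29 (SE 0.09, adjusted p = 0.0268), a call lost without GFP-AL replicate 1 or 3 or GFP-Veh replicate 1 (adjusted p = 0.0526 to 0.0601), and it was at -0.18 (SE 0.09, adjusted p = 0.147) for LH3-AL against GFP-AL, which passed with quantile normalization (adjusted p = 0.0183) and with library weights (adjusted p = 0.0356). The Abcc1 call in GFP-AL against GFP-Veh held in 14 of 19 alternatives. It was also lost in a fit of 2 groups (adjusted p = 0.0697) and with depth as a covariate (adjusted p = 0.121 with limma). Abcc10, a pump for lipophilic drugs, was listed at 1.59, 2.36, 1.59, 1.76 and 1.65 FPKM in LH3-AL, at 2.11, 1.14, 1.75, 1.06 and 1.94 FPKM in GFP-AL and at 1.62, 1.26, 1.29, 2.14 and 1.98 FPKM in GFP-Veh. The groups overlapped, and the difference was -0.04 (SE 0.14, adjusted p = 0.856) for GFP-AL against GFP-Veh and 0.11 (SE 0.14, adjusted p = 0.557) for LH3-AL against GFP-AL. Abcc3, an exporter of bile salts and glucuronides, lay just under the filter at 0.530 to 0.894 FPKM in LH3-AL, 1.01 to 1.64 FPKM in GFP-AL and 0.606 to 0.982 FPKM in GFP-Veh. Every GFP-AL library lay above all others. With no filter Abcc3 was called in GFP-AL against GFP-Veh at 0.31 (adjusted p = 0.0273) and in LH3-AL against GFP-AL at -0.37 (adjusted p = 0.0142). Abcc2, the canalicular pump of the liver, was at 0.0701 FPKM or less in all 15 libraries.

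Of the 17 members placed with the lipid exporters, 11 were tested. In GFP-AL against GFP-Veh, Abca1 rose and Abca8a and Abca9 fell, and in LH3-AL against GFP-AL, Abca8a, Abca9 and Abcg4 rose. These are 27.3% of the 11 in either comparison, near the 28.6% and 28.5% of all genes tested. Abca1, which loads cholesterol and phospholipid onto apolipoprotein A-I and E, lay at 11.4 to 15.04 FPKM in LH3-AL, 13.3 to 18.8 FPKM in GFP-AL and 7.23 to 12.7 FPKM in GFP-Veh. Every GFP-AL library was above every GFP-Veh library, while LH3-AL overlapped with both, through 1 high library (replicate 1) on the GFP-AL side. The difference was 0.55 (SE 0.14, adjusted p = 0.00837) for GFP-AL against GFP-Veh. For LH3-AL against GFP-AL it was -0.38 (SE 0.14, adjusted p = 0.0526), just short of the threshold, and it passed under 7 alternatives, among them leaving out LH3-AL replicate 1 (adjusted p = 0.0413) or GFP-AL replicate 4 (adjusted p = 0.0306). Abcg1, a cholesterol exporter to high-density lipoprotein that liver X receptors induce along with Abca1, was chosen after its values were seen: its differences were -0.16 (95% interval -0.50 to 0.19, adjusted p = 0.489) for GFP-AL against GFP-Veh and 0.15 (95% interval -0.19 to 0.49, adjusted p = 0.499) for LH3-AL against GFP-AL.

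Abca8a and Abca9 belong to a run of 5 Abca genes on chromosome 11 (GRCm38, chr11:109932190-110337716, minus strand), whose substrates are less well known. Abca8a was listed at 4.93, 5.82, 4.57, 5.04 and 3.56 FPKM in LH3-AL, at 2.44, 1.97, 1.54, 2.67 and 1.97 FPKM in GFP-AL and at 4.84, 3.74, 4.48, 6.19 and 5.49 FPKM in GFP-Veh. Every GFP-AL library lay below every library of the other groups, which overlapped. The difference was -0.93 (SE 0.14, adjusted p = 2.02e-04) for GFP-AL against GFP-Veh and 0.89 (SE 0.14, adjusted p = 4.27e-04) for LH3-AL against GFP-AL, and both calls held under every alternative that tested it. Abca9 was listed at 8.92, 6.63, 6.86, 7.95 and 5.30 FPKM in LH3-AL, at 4.26, 1.89, 3.37, 5.90 and 4.78 FPKM in GFP-AL and at 7.92, 6.21, 7.06, 7.10 and 7.25 FPKM in GFP-Veh. GFP-AL lay below GFP-Veh without overlap and overlapped with LH3-AL through GFP-AL replicate 4. Its difference was -0.74 (SE 0.19, adjusted p = 0.00848) for GFP-AL against GFP-Veh and 0.73 (SE 0.19, adjusted p = 0.0105) for LH3-AL against GFP-AL. With depth as a covariate, which was chosen after seeing the data, the GFP-AL against GFP-Veh value passed neither for Abca9 (adjusted p = 0.0553) nor for Abca1 (adjusted p = 0.0575). The calls of Abcb8 (adjusted p = 0.183), Abcc1 (0.121) and Abcg3 (0.0857) in that comparison were lost with depth as well.

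The other 3 genes of the run, named after their values were seen, differed among themselves. Abca8b, next to Abca8a, was at 2.15 to 4.001 FPKM in LH3-AL, 0.556 to 2.67 FPKM in GFP-AL and 2.27 to 3.51 FPKM in GFP-Veh, with differences of -0.51 (95% interval -0.92 to -0.10, adjusted p = 0.062) for GFP-AL against GFP-Veh and 0.47 (95% interval 0.06 to 0.89, adjusted p = 0.0795) for LH3-AL against GFP-AL. Without GFP-AL replicate 1 Abca8b passed in both (adjusted p = 0.0263 for GFP-AL against GFP-Veh and 0.0334 for LH3-AL against GFP-AL), and for GFP-AL against GFP-Veh also with library weights (adjusted p = 0.0412) and with depth as a covariate (adjusted p = 0.0495). Abca5, at the far end, had 0.01 (95% interval -0.24 to 0.26, adjusted p = 0.952) for GFP-AL against GFP-Veh and 0.11 (95% interval -0.14 to 0.36, adjusted p = 0.509) for LH3-AL against GFP-AL. Abca6 was below the filter at 0.400 to 0.736 FPKM in LH3-AL, 0.156 to 1.16 FPKM in GFP-AL and 0.340 to 0.672 FPKM in GFP-Veh. Of the 50-base stretches of Abca8a transcripts, 1.64% also occur in Abca8b. Pericyte marker sums were 1394 to 1712 FPKM in LH3-AL, 878 to 1466 FPKM in GFP-AL and 1444 to 1839 FPKM in GFP-Veh, and those of perivascular fibroblasts were 246 to 387 FPKM in LH3-AL, 209 to 354 FPKM in GFP-AL and 295 to 422 FPKM in GFP-Veh. Choroid plexus markers summed to 3184 to 5283 FPKM in LH3-AL, 1981 to 3109 FPKM in GFP-AL and 3693 to 9232 FPKM in GFP-Veh, and oligodendrocyte markers to 1082 to 1569 FPKM in LH3-AL, 915 to 1637 FPKM in GFP-AL and 1192 to 1501 FPKM in GFP-Veh. The pericyte and choroid plexus sums of GFP-AL lay mostly below those of the other groups, as Abca8a and Abca9 did, and their part in these results was not tested.

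Abcg4, a sterol exporter known from neurons and glia, was at 2.23 to 3.22 FPKM in LH3-AL, 1.22 to 2.12 FPKM in GFP-AL and 1.68 to 3.18 FPKM in GFP-Veh. LH3-AL lay above GFP-AL without overlap, and GFP-Veh overlapped with both. Abcg4 rose in LH3-AL against GFP-AL with 0.46 (SE 0.14, adjusted p = 0.0234), a call lost without LH3-AL replicate 2 or 4 or GFP-AL replicate 3 (adjusted p = 0.0582 to 0.0585), and had -0.29 (SE 0.14, adjusted p = 0.128) for GFP-AL against GFP-Veh. The Abcg4 call held in 14 of 19 alternatives. Abca2 and Abca7, the lipid transporters of highest level, were called in none of the 3 comparisons. Abca2 was at 41.7 to 74.2 FPKM in LH3-AL, 37.6 to 71.99 FPKM in GFP-AL and 36.1 to 77.8 FPKM in GFP-Veh, and Abca7, a phospholipid transporter whose human gene is a risk gene for Alzheimer disease, at 14.2 to 17.98 FPKM in LH3-AL, 13.8 to 16.1 FPKM in GFP-AL and 14.8 to 17.7 FPKM in GFP-Veh. Both overlapped between all groups. Abca3, the surfactant lipid transporter of lung lamellar bodies, was named after its values were seen, as its LH3-AL libraries all lay above those of GFP-Veh (11.5 to 13.3 FPKM in LH3-AL, 9.46 to 13.2 FPKM in GFP-AL and 9.46 to 10.1 FPKM in GFP-Veh). That difference was 0.29 (SE 0.08, adjusted p = 0.2) for LH3-AL against GFP-Veh and 0.22 (SE 0.08, adjusted p = 0.0598) for GFP-AL against GFP-Veh. The second of these passed under 5 alternatives (adjusted p = 0.0113 to 0.0346) and the first with library weights (adjusted p = 0.00834). Of the 50-base stretches of Abca3 transcripts, 8.16% also occur in D330041H03Rik.

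**Figure D4:**
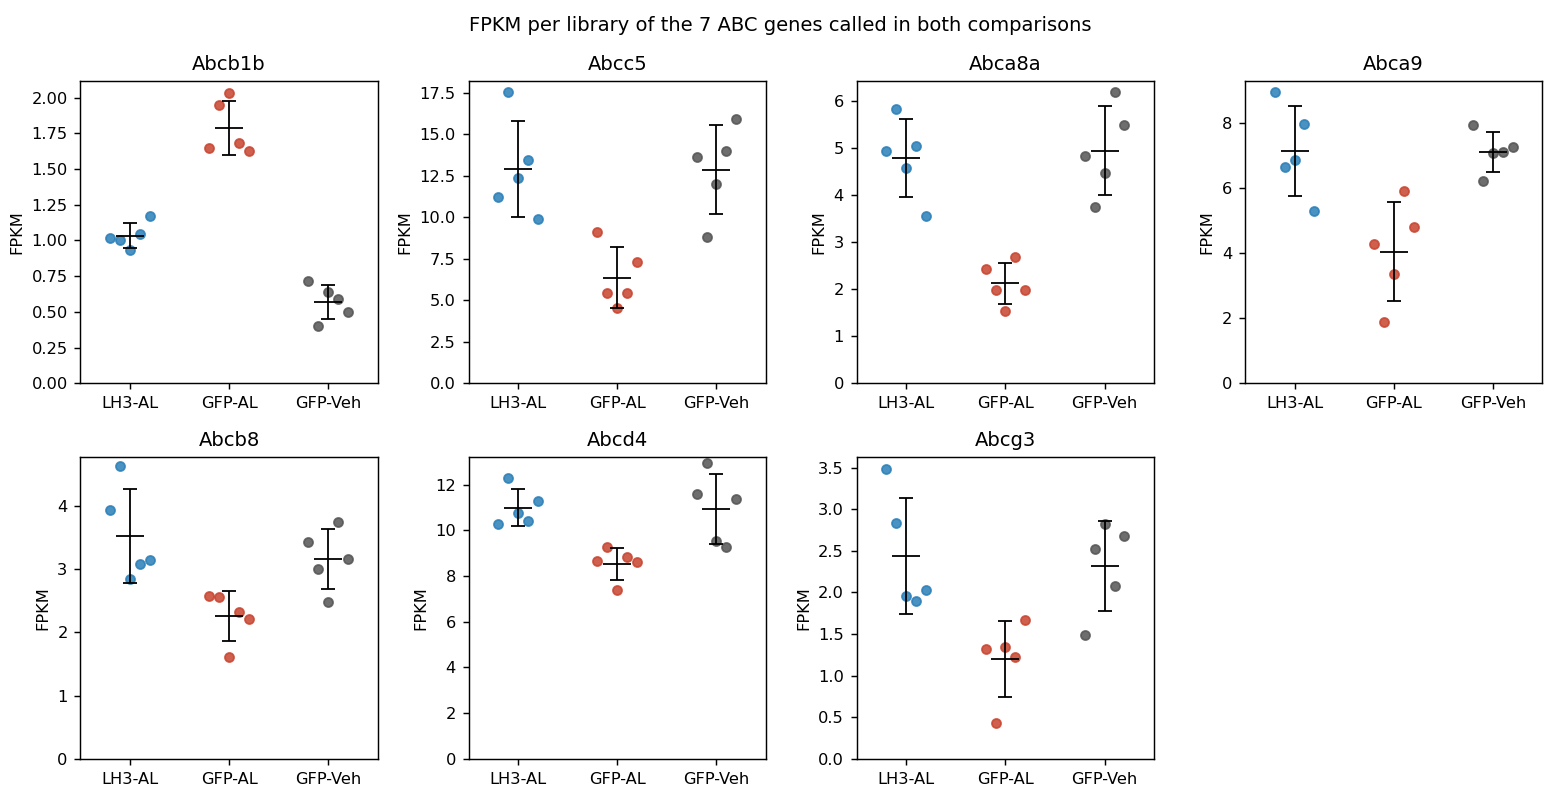
FPKM in each library of LH3-AL, GFP-AL and GFP-Veh for the 7 ABC genes called in both comparisons, with mean and SD of 5 libraries. Abcb1b is highest in GFP-AL (1.79 FPKM on average, against 0.569 FPKM in GFP-Veh), and the other 6 are lowest there.

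All 7 organelle transporters among the members were tested. In GFP-AL against GFP-Veh, Abcb8 and Abcd4 fell, which is 28.6% of the 7 and the same share as among all genes tested. In LH3-AL against GFP-AL, Abcb8, Abcb9 and Abcd4 rose, 42.9% of the 7 against 28.5% of all genes. The marker lists that moved between these groups, given above, moved in the same libraries as the organelle genes, and their part in these results was not tested.

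Abcb8, a transporter of the inner mitochondrial membrane, was listed at 3.93, 4.62, 2.84, 3.07 and 3.14 FPKM in LH3-AL, at 2.57, 2.55, 1.60, 2.32 and 2.21 FPKM in GFP-AL and at 3.43, 2.99, 2.48, 3.73 and 3.15 FPKM in GFP-Veh. LH3-AL lay above GFP-AL without overlap, and 1 GFP-Veh library lay within the GFP-AL range. The difference was 0.47 (SE 0.13, adjusted p = 0.0133) for LH3-AL against GFP-AL, which held under every alternative that tested it, and -0.36 (SE 0.13, adjusted p = 0.045) for GFP-AL against GFP-Veh, lost without GFP-AL replicate 3, 4 or 5 or GFP-Veh replicate 1, 4 or 5 (adjusted p = 0.0606 to 0.114). That second Abcb8 call held in 7 of 19 alternatives. Abcd4, which in human cells takes part in the export of cobalamin from lysosomes, was listed at 10.3, 12.3, 10.7, 10.4 and 11.3 FPKM in LH3-AL, at 8.66, 9.27, 7.38, 8.81 and 8.61 FPKM in GFP-AL and at 11.6, 12.9, 9.53, 9.26 and 11.4 FPKM in GFP-Veh. Again LH3-AL lay above GFP-AL without overlap, while GFP-Veh touched the GFP-AL range at its lower end. Abcd4 had -0.32 (SE 0.10, adjusted p = 0.023) for GFP-AL against GFP-Veh, lost without GFP-AL replicate 3 or GFP-Veh replicate 1 or 5 (adjusted p = 0.0542 to 0.0557), and 0.33 (SE 0.10, adjusted p = 0.0198) for LH3-AL against GFP-AL, lost without LH3-AL replicate 2 (adjusted p = 0.0512). These 2 Abcd4 calls held in 13 and 19 of 20 alternatives.

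Abcb9, a lysosomal peptide transporter, was at 3.53 to 6.01 FPKM in LH3-AL, 2.73 to 3.87 FPKM in GFP-AL and 2.97 to 4.41 FPKM in GFP-Veh, with overlap between all groups. It had 0.37 (SE 0.13, adjusted p = 0.0389) for LH3-AL against GFP-AL, lost without LH3-AL replicate 1, 2, 4 or 5 or GFP-AL replicate 3, 4 or 5 (adjusted p = 0.055 to 0.0995), and -0.23 (SE 0.13, adjusted p = 0.176) for GFP-AL against GFP-Veh. The Abcb9 call held in 5 of 19 alternatives. It was also lost with both scalings, library weights, no filter, depth and a fit of 2 groups (adjusted p = 0.0508 to 0.118 with limma). The other 4 organelle members, Abcb6 and Abcb10 and the peroxisomal fatty acid transporters Abcd2 and Abcd3, were called in neither comparison, with log2 differences of -0.22 to 0.21 for GFP-AL against GFP-Veh and -0.21 to 0.12 for LH3-AL against GFP-AL. Abcb6 passed in both under median-of-ratios scaling (adjusted p = 0.0384 as higher in GFP-AL against GFP-Veh and 0.0447 as lower in LH3-AL against GFP-AL), under quantile normalization and without GFP-AL replicate 4. Reads of Abcb6 are uncertain, since 2840 of the 5679 50-base stretches of its transcripts also occur in Gm29253, which overlaps it.

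Of the 4 soluble members, Abcf2 alone was called, in LH3-AL against GFP-AL, which is 25% of the 4 against 28.5% of all genes. Abcf2, an ATPase related to translation factors, was at 22.5 to 24.4 FPKM in LH3-AL, 26.3 to 33.4 FPKM in GFP-AL and 24.3 to 29.1 FPKM in GFP-Veh. LH3-AL lay below GFP-AL without overlap, and GFP-Veh overlapped with both. The difference was -0.30 (SE 0.08, adjusted p = 0.0148) for LH3-AL against GFP-AL, which held under every alternative that tested it, and 0.18 (SE 0.08, adjusted p = 0.116) for GFP-AL against GFP-Veh, which passed under 4 alternatives (adjusted p = 0.0231 to 0.0434). Abce1, which splits ribosomes after termination, had the next level at 20.99 to 26.5 FPKM in LH3-AL, 16.04 to 24.6 FPKM in GFP-AL and 22.6 to 27.6 FPKM in GFP-Veh and overlapped between groups, with -0.18 (95% interval -0.42 to 0.05, adjusted p = 0.232) for GFP-AL against GFP-Veh. Abcf1 and Abcf3 were not called, and Abcf3 passed as lower in LH3-AL against GFP-Veh with library weights (-0.29, adjusted p = 0.0211).

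Among the members of other or uncertain role, 3 of 8 were tested and Abcg3 was called. That is 33.3% of the 3 in GFP-AL against GFP-Veh (28.6% of all genes) and in LH3-AL against GFP-AL (28.5%). Abcg3 is a rodent relative of Abcg2 whose ATP-binding region departs from the family's pattern. It was listed at 3.48, 2.83, 1.96, 1.90 and 2.02 FPKM in LH3-AL, at 1.32, 0.436, 1.34, 1.22 and 1.67 FPKM in GFP-AL and at 1.48, 2.52, 2.82, 2.08 and 2.68 FPKM in GFP-Veh. Every LH3-AL library lay above every GFP-AL library, and 1 GFP-Veh library (replicate 1) fell within the GFP-AL range. Abcg3 fell in GFP-AL against GFP-Veh with -0.61 (SE 0.18, adjusted p = 0.0182) and rose in LH3-AL against GFP-AL with 0.65 (SE 0.18, adjusted p = 0.0135). Without the 3 libraries that stood apart, the adjusted p of Abcg3 was 0.103 for GFP-AL against GFP-Veh and 0.0593 for LH3-AL against GFP-AL. These 2 Abcg3 calls held in 15 and 17 of 19 alternatives. Abcc6, whose loss in humans causes ectopic calcification, was at 5.63 to 9.40 FPKM in LH3-AL, 2.64 to 9.25 FPKM in GFP-AL and 6.41 to 10.1 FPKM in GFP-Veh, and Abcc8, the sulfonylurea receptor subunit of potassium channels, was at 3.31 to 7.35 FPKM in LH3-AL, 1.51 to 3.80 FPKM in GFP-AL and 2.60 to 5.72 FPKM in GFP-Veh. Both overlapped between groups and were not called, though Abcc8 passed as lower in GFP-AL against GFP-Veh with library weights (-0.56, adjusted p = 0.0437).

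Without the 3 libraries that stood apart, 6 members were higher and 3 lower in GFP-AL against GFP-Veh, 5 higher and 3 lower in LH3-AL against GFP-AL, and 1, Abcb1b, higher in LH3-AL against GFP-Veh (adjusted p = 0.0464 with limma). Of all genes tested, 11.6% were then higher and 14.6% lower in the first, 11.4% higher and 9.79% lower in the second, and 0.527% higher and 0.68% lower in the third. In GFP-AL against GFP-Veh, Abcb8 (adjusted p = 0.122), Abcd4 (0.078) and Abcg3 then no longer passed, while Abca3 (adjusted p = 0.0122), Abca4 (0.0356) and Abcf2 (0.0362) passed as higher. Between LH3-AL and GFP-AL, Abcb9 (adjusted p = 0.111), Abcg4 (0.0516) and Abcg3 no longer passed, and Abca1 passed as lower (adjusted p = 0.0301). The calls of Abcb1b, Abca8a and Abcc5 in both comparisons held.

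Between LH3-AL and GFP-Veh, differences of the 32 members ran from -0.27 to 0.48 (log2), with a median of 0.02 beside -0.01 for all genes. Abcb1b and Abca3 were the 2 members whose groups did not overlap, both higher in LH3-AL, which is 6.25% of the members against 4.67% of all genes (2.06% higher and 2.61% lower). With library weights, Abcb1b (adjusted p = 0.00359), Abca3 and Abcc4 passed as higher and Abcf3 as lower, while 3.43% of all genes passed as higher and 5.7% as lower. For the 6 members that were called lower in GFP-AL against GFP-Veh, the LH3-AL against GFP-Veh difference was -0.04 for Abca8a, 0.00 for Abcc5, -0.01 for Abca9, 0.05 for Abcg3, 0.01 for Abcd4 and 0.11 for Abcb8. Their 95% intervals reached as far as -0.41 and 0.42, and a p above the threshold does not show that the groups were alike.

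Nuclear receptors and other factors known to regulate ABC genes were read from the same fit. Of 18 such genes 13 were tested, and 2 were higher and 1 lower in GFP-AL against GFP-Veh, and 1 higher and 3 lower in LH3-AL against GFP-AL. These are 3 and 4 of 13, beside 28.6% and 28.5% of all genes tested. The median log2 difference of the 13 was 0.12 beside -0.09 for all genes in GFP-AL against GFP-Veh, and -0.06 beside 0.08 in LH3-AL against GFP-AL. Nfe2l2, the oxidative stress factor that induces multidrug resistance proteins, had 0.41 (adjusted p = 0.00612) for GFP-AL against GFP-Veh and -0.50 (adjusted p = 0.00233) for LH3-AL against GFP-AL. Ppard, a lipid-activated receptor, had 0.54 (adjusted p = 0.00574) for GFP-AL against GFP-Veh and -0.54 (adjusted p = 0.00677) for LH3-AL against GFP-AL. Nr3c1, the glucocorticoid receptor, had -0.75 (adjusted p = 0.00303) for GFP-AL against GFP-Veh and 0.59 (adjusted p = 0.0139) for LH3-AL against GFP-AL, and Nr1h2, a liver X receptor, had 0.22 (adjusted p = 0.281) for GFP-AL against GFP-Veh and -0.51 (adjusted p = 0.0205) for LH3-AL against GFP-AL. Nr1i3, the constitutive androstane receptor, was below 0.05 FPKM in all libraries.

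A list of 15 genes joined apolipoproteins with lipid enzymes, transfer proteins and lipoprotein receptors, and 14 were tested. Of these, 2 were higher and 3 lower in GFP-AL against GFP-Veh, and 3 higher and 2 lower in LH3-AL against GFP-AL. These are 5 of 14 in either comparison, beside 28.6% and 28.5% of all genes tested. The median log2 difference of the 14 was -0.10 beside -0.09 for all genes in GFP-AL against GFP-Veh and 0.06 beside 0.08 in LH3-AL against GFP-AL. Pltp, which transfers phospholipid between lipoproteins, had -1.64 (adjusted p = 3.29e-05) for GFP-AL against GFP-Veh and 1.23 (adjusted p = 4.34e-04) for LH3-AL against GFP-AL. Lcat, which esterifies the cholesterol that Abca1 releases, had -1.08 (adjusted p = 4.11e-04) for GFP-AL against GFP-Veh and 0.83 (adjusted p = 0.00314) for LH3-AL against GFP-AL, and Vldlr, a lipoprotein receptor, had -0.51 (adjusted p = 0.0384) for GFP-AL against GFP-Veh and 0.53 (adjusted p = 0.0327) for LH3-AL against GFP-AL. Apod, a small lipocalin, had 1.27 (adjusted p = 3.27e-04) for GFP-AL against GFP-Veh and -0.90 (adjusted p = 0.00447) for LH3-AL against GFP-AL, and Lpcat3, a phospholipid remodelling enzyme, had 0.47 (adjusted p = 0.00455) for GFP-AL against GFP-Veh and -0.33 (adjusted p = 0.0304) for LH3-AL against GFP-AL. Apoe, named after its values were seen, had -0.06 (adjusted p = 0.806) for GFP-AL against GFP-Veh and -0.13 (adjusted p = 0.569) for LH3-AL against GFP-AL. Neither list had a call in LH3-AL against GFP-Veh.

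The authors' deposited tables of differential genes, which hold genes past a log2 fold change of 1, list 5 members. In the authors' deposited table for GFP-AL against GFP-Veh, Abcb1b was at 1.65 (q = 6.94e-10), Abcb4 at 1.64 (q = 0.00121), Abca8a at -1.23 (q = 2.71e-05) and Abcc5 at -1.01 (q = 4.88e-04). In the authors' deposited second table, Abca8a was at 1.18 (q = 1.82e-05), Abcc5 at 1.02 (q = 2.44e-04) and Abcg3 at 1.02 (q = 0.032). That table is named for LH3-AL against GFP-Veh, but the signs of its fold changes match LH3-AL against GFP-AL at 1746 of 1746 genes tested here and LH3-AL against GFP-Veh at 59.3% of them. Its values are therefore set beside LH3-AL against GFP-AL, on whose sign Abca8a, Abcc5 and Abcg3 were higher. The sources used here do not give the scale behind these fold changes.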

How the data were processed

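RNA of isolated cerebral vessels was sequenced in 15 libraries of 3 groups of 5, named in the titles. The authors deposited FPKM values for 22557 genes, per the file headers, and 2 tables of differential genes with log2 fold changes, p-values and q-values, per the file headers. Per the submitters' processing notes, STAR 2.5.1b and the build mm8 were used; the sources used here give no counting step, strandedness or annotation. The FPKM table holds no exact 0, and 5.99% of its values lie below 0 (lowest -0.465), which FPKM cannot do; 34 of the 675 member values did, none below -0.00057. All values below 0 were set to 0. FPKM keep no counts, so no count test was run, and the number of libraries limits the precision.

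Rows sharing a symbol (31 symbols, none of them a member) were summed. Differences were tested with limma 3.58.1 (R 4.3.3), with an intensity trend, on log2(FPKM + 1) of the 13082 genes whose mean over 15 libraries reached 1 FPKM. Group means were fitted to all 15 libraries together, with Benjamini-Hochberg adjustment in each comparison. The fit was tested on simulated data with changes planted in the GFP-AL libraries alone. Changes of 0.5 log2 were called in 34.8% of cases for GFP-AL against GFP-Veh and 37.9% for LH3-AL against GFP-AL. At 1 log2 these shares were 83.6% and 85.1%, so a member that was not called may still differ. LH3-AL against GFP-Veh held no planted change, so recovery there was not tested. Gene IDs were matched to GENCODE M21 (GRCm38) for 22400 of 22557 genes, and promoters were read from RefSeq (GRCm38.p6); the files hold no coordinates. Depth was estimated as the number of fragments at which low values become whole; 42.8% to 65.00% of them came within 0.1 of a whole number, so depths and fragment numbers are approximate and no reads were recovered.

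The members, the gene lists and the tests were chosen with earlier results of these data known. Members called in at least 1 comparison are described, with every library's value for those called in 2 and for the 7 tested efflux pumps; up to 6 others are named by level, and further members are marked as chosen after their values were seen. Alternatives were another filter, pseudocount and scaling, library weights, a replicate block, fits of 2 groups, leaving out single libraries or 3 libraries, and, added after seeing the data, depth as a covariate.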

Additional observations from a re-analysis of the deposited data

Results flagged for a closer look

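Dixon's test, applied to each group of 5 libraries of the 32 tested members, marked 10 of 96 groups in which 1 library lay far from the other 4; chance marks about 5%. LH3-AL replicate 2 was that library in 5 of them. It was low for Abcb1a (129 FPKM, against 170.2 to 178 FPKM in the other LH3-AL libraries) and high for Abca8b (4.001 against 2.15 to 2.67 FPKM), Abcb9 (6.01 against 3.53 to 4.24 FPKM), Abcc10 (2.36 against 1.59 to 1.76 FPKM) and Abcc8 (7.35 against 3.31 to 4.03 FPKM). Of all libraries, LH3-AL replicate 2 also had the lowest endothelial marker sum (2483 FPKM) and the highest neuron marker sum (268 FPKM). The part of either in these flags was not tested. LH3-AL replicate 1 was high for Abca1 (15.04 FPKM, against 11.4 to 12.03 FPKM) and for Abce1 (26.5 against 20.99 to 22.2 FPKM). GFP-AL replicate 2 was low for Abcc4 at 32.8 FPKM, against 64.6 to 74.5 FPKM in the other GFP-AL libraries. GFP-Veh replicate 2 was low for Abca1 at 7.23 FPKM, against 11.1 to 12.7 FPKM in the other GFP-Veh libraries, and GFP-Veh replicate 3 was high for Abcb1a at 188 FPKM, against 142 to 146 FPKM.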

How the results depend on the processing

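Over the alternatives run, 1785 of the members' values kept their side of the threshold, 52 no longer passed, 41 newly passed, and no called value changed sign. Values that passed in neither fit count among the 1785 even where their sign turned, as that of Abcb1a did. Of the calls named in the report, those of Abcb1b, Abca8a and Abcc5 in both comparisons and of Abca9, Abcb8 and Abcf2 in LH3-AL against GFP-AL held in every alternative that tested them. In GFP-AL against GFP-Veh, the 3 members higher became 5 with no filter, 1 with a mean of at least 5 FPKM, 7 with median-of-ratios scaling, 6 with quantile normalization, 6 with library weights, 1 with depth as a covariate, 6 without the 3 libraries that stood apart, 2 in a fit of only these groups, and 2 to 4 without single libraries. The 6 members lower became 3 with a mean of at least 5 FPKM, 3 without the 3 libraries, 4 with median-of-ratios scaling, with quantile normalization, with depth and in a fit of only these groups, and 4 to 7 without single libraries. Counts over all genes tested moved as well, from 1416 higher and 2321 lower. They were 1637 and 1830 with quantile normalization, and 1687 and 2509 with library weights. With depth they were 1018 and 1345, and in a fit of only these groups 1097 and 1632. With no filter they were 1596 and 2740 of 22526, and with a mean of at least 5 FPKM 962 and 1212 of 7382. Without single libraries they ran from 1111 to 1777 and from 1697 to 2660. In LH3-AL against GFP-AL, the 8 higher became 3 with a mean of at least 5 FPKM, 6 with quantile normalization, 6 with library weights, 5 without the 3 libraries, and 5 to 9 without single libraries, and the 2 lower became 1 with a mean of at least 5 FPKM, 4 with median-of-ratios scaling, 5 with quantile normalization, 5 with library weights, 3 with no filter, 3 without the 3 libraries, 3 in a fit of only these groups, and 2 to 4 without single libraries. Over all genes tested, 2227 higher and 1496 lower became 1774 and 1645 with quantile normalization and 1926 and 1629 with library weights. In a fit of only these groups they were 1774 and 1327. They were 2588 and 1576 of 22526 with no filter, and 1051 and 1058 of 7382 with a mean of at least 5 FPKM. Without single libraries they ran from 1494 to 2449 and from 1109 to 1548. In LH3-AL against GFP-Veh, the 0 higher and 0 lower became 3 and 1 with library weights, 1 and 0 without the 3 libraries, 1 and 0 in a fit of only these groups, and 0 to 0 without single libraries. In that fit of only these groups, 63 of the 13082 genes tested were higher and 113 lower. The members' median in GFP-AL against GFP-Veh, -0.152, was -0.021 with no filter, -0.066 without the 3 libraries and -0.191 to -0.060 without single libraries. In LH3-AL against GFP-AL, 0.111 became 0.037 with no filter, 0.014 with library weights, 0.033 without the 3 libraries and 0.065 to 0.162 without single libraries, and in LH3-AL against GFP-Veh, 0.020 became -0.010 to 0.079. A mean of at least 5 FPKM tests fewer members; the cause of the other shifts was not tested.

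With the replicate number as a block, the counts were 3 higher and 6 lower in GFP-AL against GFP-Veh, and 8 higher and 3 lower in LH3-AL against GFP-AL. Of all genes tested, 1440 were then higher and 2343 lower in the first, and 2323 higher and 1556 lower in the second. Same-numbered libraries deviated from their group means with correlations of -0.261 to 0.286. The labels name no pairing, and these correlations cannot show whether the numbers pair the samples. Depth lay lower in 4 of the 5 GFP-Veh libraries (lowest 13.6 M fragments) than in all others, so depth and group can hardly be told apart, and members near 1 FPKM have few fragments (46 to 388 estimated for Abcb1b).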

Other observations

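Some tested members outside the comparisons above lay near the threshold and were chosen after their values were seen. Abca4, the retinoid transporter of photoreceptors, was at 1.76 to 2.58 FPKM in LH3-AL, 2.24 to 3.91 FPKM in GFP-AL and 1.87 to 2.66 FPKM in GFP-Veh. Its log2 difference was 0.29 (95% interval 0.02 to 0.56, adjusted p = 0.0974) for GFP-AL against GFP-Veh and -0.28 (95% interval -0.55 to -0.01, adjusted p = 0.111) for LH3-AL against GFP-AL. Abcb6, a porphyrin transporter, was at 1.16 to 1.60 FPKM in LH3-AL, 1.32 to 2.03 FPKM in GFP-AL and 1.19 to 1.52 FPKM in GFP-Veh, with 0.21 (95% interval 0.01 to 0.41, adjusted p = 0.106) for GFP-AL against GFP-Veh and -0.21 (95% interval -0.41 to -0.01, adjusted p = 0.104) for LH3-AL against GFP-AL. Both passed in the 2 comparisons with quantile normalization, with adjusted p = 0.0294 (Abca4) and 0.0139 (Abcb6) for GFP-AL against GFP-Veh, and 0.0297 (Abca4) and 0.00928 (Abcb6) for LH3-AL against GFP-AL. Among the peroxisomal members, Abcd3 was at 4.80 to 6.93 FPKM in LH3-AL, 4.12 to 6.39 FPKM in GFP-AL and 5.83 to 7.69 FPKM in GFP-Veh, and the groups overlapped.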
